A study of Mus musculus with 25 samples.

Results

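Unedited mouse E14 embryonic stem (ES) cells given the top doses of the GSK3 inhibitor CHIR99021, 7.5 and 10 µM for 48 h, were compared with untreated cells (0 µM) across all genes. The 2 libraries of each top dose were pooled into a group of 4 and set against the 2 untreated libraries, by their dose labels alone. These 6 libraries belong to a series of 25 that also holds 2 libraries each at 2.5 and 5 µM and 15 clonal E14 lines with a heterozygous missense mutation at codon 37, 41 or 45 of *Ctnnb1*, the gene of β-catenin. The inhibitor was the study's positive control for the clones. All 6 libraries are wild type by their labels, from a line that grows without feeder cells on gelatin, in serum with leukemia inhibitory factor (LIF). The labels do not say whether the libraries of a dose came from separate cultures, so the p-values measure the spread between these libraries, which may be technical. Expression was measured by bulk 3′ RNA sequencing with unique molecular identifiers (UMIs), and levels are given as CPM, counts scaled to a common library total.

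GSK3 phosphorylates β-catenin at its amino-terminal degron and so marks it for ubiquitylation and degradation. Wnt ligands, or a small molecule that blocks the kinase, allow β-catenin to accumulate and to act with TCF/LEF factors on target genes, several of which encode negative feedback regulators of the pathway. In mouse ES cells the same inhibitor is one of the components of culture media for naive pluripotency, and GSK3 has many other substrates, among them glycogen synthase and Myc proteins.

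Depth ranged from 306157 counts in replicate 1 at 10 µM to 1839735 counts in replicate 1 at 0 µM, and a count of 0 allows up to 9.80 and 1.63 CPM there. Where counts of a gene are given below, they are sums over the 2 untreated and over the 4 treated libraries, not scaled to depth. The treated libraries together were deeper, so an equal level would give more counts in them. All 6 expressed pluripotency genes, with *Sox2* between 421 and 640 CPM, but *Pou5f1* was low in all 6, at levels given below. Genes of 2-cell-like cells summed to at most 3.27 CPM. Both libraries of each dose were further apart than counting alone gives (chi-square divided by its degrees of freedom, 1.36 to 2.16). Mitochondrially encoded genes took 0.562% of counts in replicate 2 at 0 µM and 0.486% in replicate 1 at 10 µM, against 1.24% to 1.46% in the other 4 libraries, so that 1 library of each group stood apart in the same way. Bulk RNA cannot tell a change in the share of cells that express a gene from a change in RNA per cell, and this holds for every value below.

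Between the treated and the untreated libraries 1811 of the 10438 genes tested differed, 17.4% of them. With an adjusted p under 0.05 in edgeR's quasi-likelihood test as the threshold of a call, 858 genes (8.22%) rose and 953 (9.13%) fell. Of these, 318 rose and 283 fell over 2-fold, and 69 rose and 46 fell over 4-fold. Of all genes tested 15.8% were higher and 17.8% lower in each of the 4 treated libraries than in both untreated ones. The median log2 fold change over all genes tested was 0.0087, and the median of its absolute value was 0.261. How many genes were called depended on the test and on 1 library: DESeq2's Wald test called 796, and without replicate 1 at 0 µM the count was 813. A total of 581 calls, 276 rises (2.64% of genes tested) and 305 falls (2.92%), also passed with DESeq2 and in each of the 6 fits that left out 1 library, and these are named firm calls below. Counts of calls and firm calls in the gene lists below are to be read against these shares of all genes tested. A firm call could still be lost under the other alternatives, which are given at the end.

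**Figure D1:**
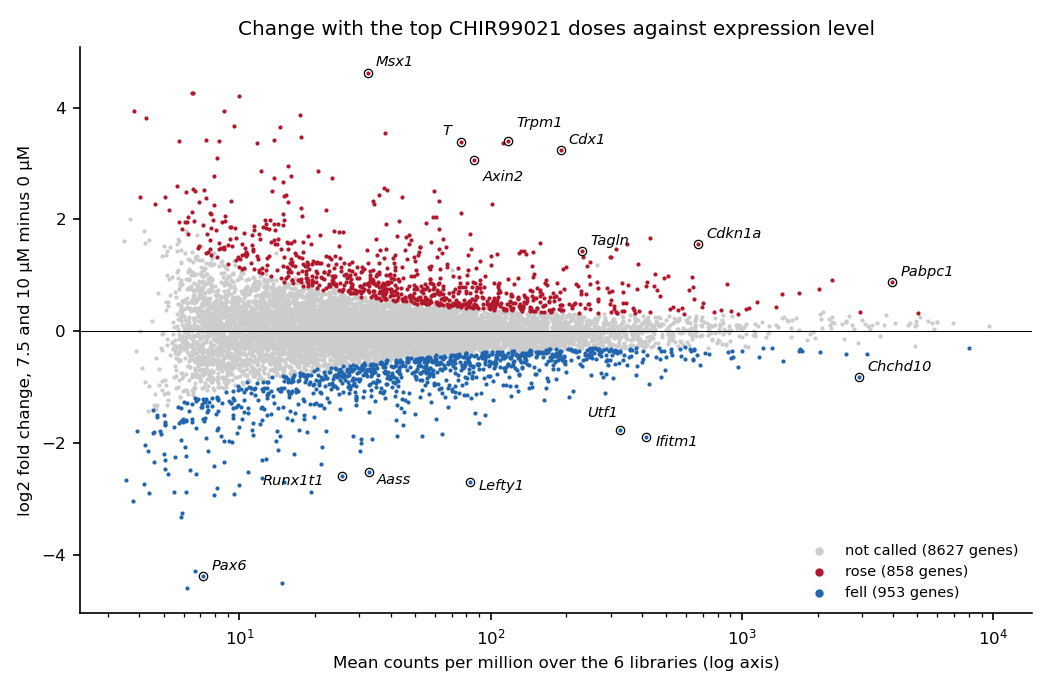
Each point is 1 of the 10438 genes tested, with its mean CPM over the 6 libraries on a log axis and its log2 fold change at 7.5 and 10 µM over 0 µM. The 858 genes that rose are red, the 953 that fell are blue, and circled genes are discussed in the text.

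The largest rises were in a homeobox gene, a primitive streak regulator and Wnt targets. By the rule for naming (called, 20 CPM or more on average, and all 4 treated libraries beyond both untreated ones), the 12 largest were *Msx1*, *Fgfbp3*, *Trpm1*, *T*, *Sp5*, *Cdx1*, *Axin2*, *Cd44*, *Tgfb2*, *Notum*, *Nkd1* and *Cited1*, with log2 fold changes from 4.63 down to 2.52. All 12 are firm calls. *Msx1*, a homeobox gene of the BMP response (ENSMUSG00000048450.10, GRCm38 chromosome 5, 37820485 to 37824583), stood at 2.17 and 1.06 CPM in the untreated libraries, at 52.2 and 39.8 CPM at 7.5 µM and at 52.3 and 46.7 CPM at 10 µM, a log2 fold change of 4.63 (SE 0.382, edgeR adjusted p = 1.19e-12). Every treated library exceeded the untreated ones many times over, and at 2.5 and 5 µM the gene stood at 10.1, 7.62, 32.9 and 27.4 CPM. Because *Msx1*, *Fgfbp3*, *Cd44* and *Tgfb2* passed the filter on low counts through the treated libraries alone, they could only be seen to rise. Likewise, a gene said below to have passed through 1 group alone could only be seen to be higher in that group.

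*T*, the brachyury gene of the primitive streak (ENSMUSG00000062327.10, chromosome 17, 8434423 to 8442496), had 9.78 and 10.6 CPM without inhibitor, 117 and 95.7 CPM at 7.5 µM and 124 and 102 CPM at 10 µM, a 10.5-fold rise (log2 3.39, SE 0.22, edgeR adjusted p = 4.25e-16). *Trpm1*, which encodes a cation channel of melanocytes and retinal bipolar cells (ENSMUSG00000030523.18, chromosome 7, 64153835 to 64269775), went from 15.8 and 17 CPM to 175 and 169 CPM at 7.5 µM and 157 and 172 CPM at 10 µM, a 10.5-fold rise (log2 3.39, SE 0.179, edgeR adjusted p = 6.66e-19). *Sp5*, a zinc finger transcription factor gene and Wnt target (ENSMUSG00000075304.2, chromosome 2, 70474923 to 70477729), went from 15.2 and 14.9 CPM to 137, 131, 180 and 192 CPM, a 10.3-fold rise (log2 3.36, SE 0.209, edgeR adjusted p = 1.21e-16). The rule for naming admits only genes whose groups do not overlap, as in these 3. All 3 were already above the untreated libraries at 2.5 µM, with 35.1 and 38.8 CPM for *T*, 71.9 and 84.6 CPM for *Trpm1* and 66.3 and 87.7 CPM for *Sp5*.

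**Figure D2:**
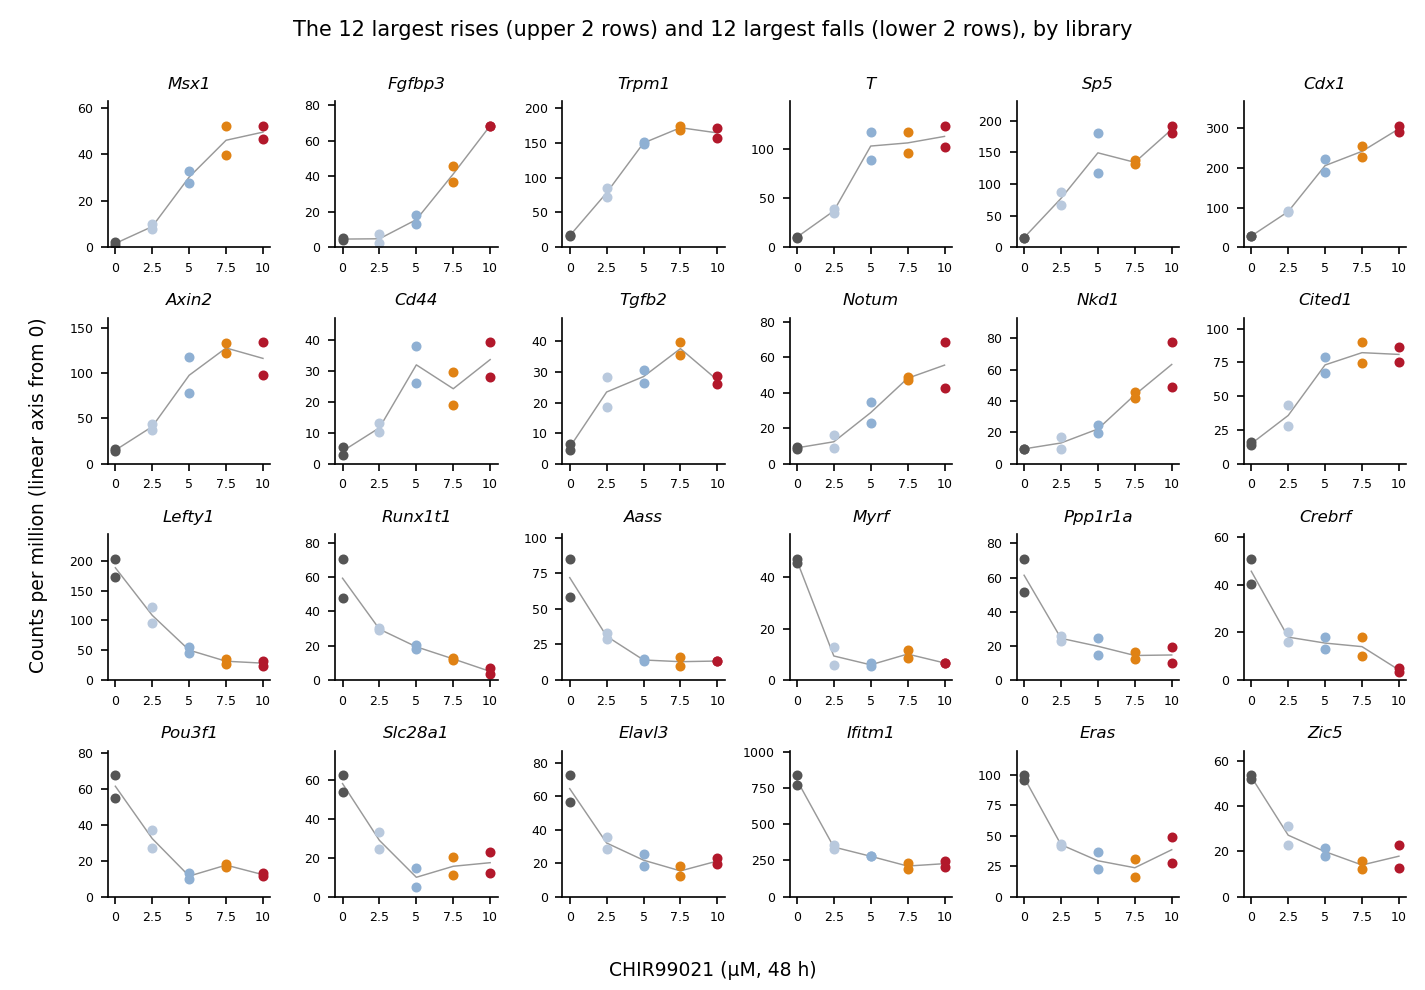
CPM of the 12 largest rises (upper 2 rows) and 12 largest falls (lower 2 rows) against the CHIR99021 dose in µM, with 1 point per library, 2 libraries per dose and a line through the means. Grey points are the untreated and orange and red points the 4 top-dose libraries of the comparison. By the rule for naming, these groups do not overlap for any of the 24 genes. Libraries at 2.5 and 5 µM, in blue, are shown for orientation and did not enter the fit.

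The 12 largest falls by the same rule were *Lefty1*, *Runx1t1*, *Aass*, *Myrf*, *Ppp1r1a*, *Crebrf*, *Pou3f1*, *Slc28a1*, *Elavl3*, *Ifitm1*, *Eras* and *Zic5*, with log2 fold changes from −2.70 to −1.87, and all 12 are firm calls. *Runx1t1*, which encodes a transcriptional corepressor, went from 70.7 and 47.8 CPM to 13.1 and 11.5 CPM at 7.5 µM and 3.27 and 6.78 CPM at 10 µM (log2 −2.60, SE 0.242, edgeR adjusted p = 3.65e-11). *Slc28a1*, a nucleoside transporter gene, went from 53.8 and 62.7 CPM to 20.3, 10.9, 22.9 and 12 CPM, and *Zic5*, a zinc finger gene of primed and neural cells, from 53.8 and 52.1 CPM to 12.3, 15.6, 22.9 and 12.8 CPM. As the rule for naming requires, no treated library of these genes reached the lower of the untreated ones.

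*T*, *Trpm1* and *Sp5* are also those of the 12 largest rises whose RefSeq promoter windows hold the core letters bound by TCF/LEF factors. Windows run from 250 bases before to 50 bases after an annotated start (RefSeq, GRCm38.p6), and 10 of the 12 genes had at least 1. CTTTGAT and CTTTGAA were searched on both strands, and the match stands in capitals, as its reverse complement (TTCAAAG) in *Trpm1* and *T*. The windows are shown because they let a reader see the letters and their place in the genes that rose most: *Sp5* at chr2:70474673-70474972, *Trpm1* at chr7:64185209-64185508 and *T* at chr17:8434173-8434472, each on the plus strand, 5′ to 3′.
Sp5: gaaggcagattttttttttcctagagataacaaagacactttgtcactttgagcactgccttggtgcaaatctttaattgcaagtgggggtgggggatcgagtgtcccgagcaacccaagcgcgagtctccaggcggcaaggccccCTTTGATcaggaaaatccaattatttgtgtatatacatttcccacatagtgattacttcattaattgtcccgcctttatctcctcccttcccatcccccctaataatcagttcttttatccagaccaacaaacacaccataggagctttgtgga
Trpm1: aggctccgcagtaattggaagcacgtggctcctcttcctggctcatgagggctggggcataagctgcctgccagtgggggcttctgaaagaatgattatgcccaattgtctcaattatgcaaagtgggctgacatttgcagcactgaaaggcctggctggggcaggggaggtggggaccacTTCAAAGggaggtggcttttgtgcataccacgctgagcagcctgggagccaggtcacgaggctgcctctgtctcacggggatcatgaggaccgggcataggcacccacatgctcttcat
T: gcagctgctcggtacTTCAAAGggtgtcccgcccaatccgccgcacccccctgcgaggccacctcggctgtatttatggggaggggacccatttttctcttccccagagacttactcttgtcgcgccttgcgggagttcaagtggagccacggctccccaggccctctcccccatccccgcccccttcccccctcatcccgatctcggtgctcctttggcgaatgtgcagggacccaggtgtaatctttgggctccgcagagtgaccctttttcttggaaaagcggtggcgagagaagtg
The match begins 104 bases before the annotated start of the window in *Sp5*, 69 bases before it in *Trpm1* and 235 bases before it in *T*. *Trpm1* has 2 windows, and the match is in the one at a start inside the gene, while the window at the gene's outermost start (chr7:64153585-64153884) holds none. Of all 32851 windows in the table, 8.65% held a match, as did 7.01% of the 870 windows of genes that rose, 5.24% of the 1011 windows of genes that fell and 5.49% of the 8527 windows of genes tested and not called. These shares are descriptions of the letters in the windows and say nothing of binding.

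Wnt target and feedback genes were among the largest rises. All of the study's 10 dose-selected targets rose (the feedback genes *Axin2*, *Notum*, *Nkd1* and *Znrf3*, the transcription factor genes *Cdx1*, *Etv4*, *Gbx2*, *Sp5* and *Tbx3*, and the ligand gene *Bmp4*), 9 of them as firm calls, but they were picked for their correlation with dose in these same libraries and are not independent evidence of a direction. Their median log2 fold change was 2.28, their summed level went from 237 and 249 CPM in the untreated libraries to between 1020 and 1190 CPM, and *Etv4* lost its call without replicate 2 at 0 µM.

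Among 18 other Wnt target and feedback genes 11 were tested, 2 of them through the treated libraries alone. Of these, 5 rose, 4 as firm calls, and 3 fell, 1 as a firm call, with a median of 0.39. *Lef1*, which encodes a transcriptional partner of β-catenin, rose from 8.15 and 11.7 CPM to 48.6, 48.4, 42.5 and 45.2 CPM (log2 2.32, SE 0.258, edgeR adjusted p = 2.89e-09). *Rnf43*, whose product removes Frizzled receptors from the cell surface, rose by 2.06 and *Tnfrsf19*, a Wnt-responsive receptor gene of the TNF receptor family, by 2.28 on the log2 scale. *Sp8*, the paralog of *Sp5*, went from 0.544 and 1.06 CPM to between 10.9 and 15.1 CPM. It passed the filter through the treated libraries alone, so a rise was the only change that could be seen in it. In the opposite direction, *Sfrp1*, which encodes a secreted Wnt antagonist, fell from 105 and 102 CPM to 46.4, 53, 71.9 and 52.7 CPM (log2 −0.97, SE 0.148, edgeR adjusted p = 2.59e-06). The falls of the receptor genes *Fzd7* (log2 −0.62) and *Lgr4* (log2 −0.43) and the rise of *Ccnd1* (log2 0.39) did not pass with DESeq2 (adjusted p = 0.139, 0.272 and 0.184) or without replicate 1 at 0 µM. *Dkk1*, a secreted antagonist too low to be tested, had 1 count in the untreated and 19 in the 4 treated libraries together.

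Of 25 genes of the pathway's machinery 20 were tested, 2 rose and 1 fell, a share near that of all genes tested, with 1 firm call in each direction and a median of 0.10. *Ctnnb1* stood at 440 and 445 CPM without and at 469, 508, 542 and 422 CPM with inhibitor (log2 0.13, SE 0.112, edgeR adjusted p = 0.492). Both genes of the inhibited kinase were also not called, *Gsk3a* with a log2 fold change of −0.15 (SE 0.156) and *Gsk3b* with 0.29 (SE 0.181). The firm calls were *Tcf7l1* and *Wls*. *Tcf7l1*, which encodes the TCF repressor of ES cells, fell from 151 and 131 CPM to 66.7, 73.2, 71.9 and 80.6 CPM (log2 −0.95, SE 0.131, edgeR adjusted p = 3.34e-07). *Wls*, whose product carries Wnt ligands to the cell surface, rose from 25.5 and 19.1 CPM to between 56.6 and 76.6 CPM (log2 1.51, SE 0.205, edgeR adjusted p = 2.7e-07). *Porcn*, the acyltransferase of Wnt ligands, was called in edgeR (log2 0.84) but not with DESeq2 (adjusted p = 0.0781) or without replicate 1 at 0 µM.

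Single genes of the primitive streak and of the posterior embryo rose. Of 15 primitive streak and mesendoderm genes 6 were tested, and 5 of these passed the filter through the treated libraries alone, so a rise was the only change that could be seen in them. Rises were called for 5 of the 6, 3 of them as firm calls. Beside *T*, firm calls were made for *Mixl1*, a homeobox gene of the streak, which went from 0.544 and 1.06 CPM to 10.9, 16.7, 13.1 and 17.3 CPM, and for the ligand gene *Wnt3*, which went from 8.15 and 5.32 CPM to 30.5, 34.6, 19.6 and 34.6 CPM. *Evx1* (log2 4.27) and *Fgf8* (log2 1.74) were called in edgeR and with DESeq2 (adjusted p = 0.0222 and 0.0357), but *Evx1* did not pass the filter on low counts without either library at 10 µM, and *Fgf8* was lost without replicate 1 at 0 µM. *Eomes*, a T-box gene of mesendoderm, was at 4.35 and 7.44 CPM without and at 4.03 to 9.8 CPM with inhibitor and was not called (edgeR adjusted p = 0.678). The definitive endoderm gene *Foxa2* had 2 counts against 5, the organizer gene *Gsc* 2 against 10, and the mesoderm genes *Mesp1* and *Tbx6* had 1 and 5 counts in the untreated against 0 and 5 in the 4 treated libraries. These sums are not scaled to depth, and the treated libraries together were deeper.

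Of 12 Cdx, Hox and retinoic acid genes 6 were tested, 3 through the treated libraries alone, and 3 rose and 1 fell. A rise was the only change that could be seen in those that passed through the treated libraries alone, *Cyp26a1* among them. The firm call was *Cyp26a1*, which encodes the enzyme that breaks down retinoic acid, at 5.44 and 2.13 CPM without and 18.1, 15, 32.7 and 12 CPM with inhibitor (log2 1.92, SE 0.431, edgeR adjusted p = 0.00106). The calls of *Cdx4* (log2 3.81) and *Dhrs3* (log2 −1.08) did not pass with DESeq2 (adjusted p = 0.069 and 0.136) or without replicate 1 at 0 µM. Among the genes too low to be tested, *Stra6*, a receptor gene for retinol uptake, had 2 counts in the untreated and 31 in the treated libraries, *Hoxb1* 1 and 20, *Hoxb9* 1 and 17, and *Cdx2* 1 and 9.

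All 11 BMP genes were tested, 3 through the treated libraries alone, and 6 rose, 4 as firm calls, while 1 fell, with a median of 0.93. In those 3, *Msx1* among them, a rise was the only change that could be seen. *Id3*, a direct BMP-SMAD target, stood at 23.4 and 9.57 CPM without and at 55.9, 55.9, 65.3 and 65.5 CPM with inhibitor (log2 1.69, SE 0.226, edgeR adjusted p = 1.98e-07). The ligand gene *Bmp7* rose from 16.3 and 18.1 CPM to between 42.5 and 51.2 CPM (log2 1.46, SE 0.224, edgeR adjusted p = 3.1e-06), and *Msx2* rose beside *Msx1* (log2 2.75). *Id1* (log2 0.93) and *Id4* (log2 1.53) did not pass with DESeq2 (adjusted p = 0.09 and 0.131) or without replicate 1 at 0 µM. *Gdf3*, a ligand gene of pluripotent cells, fell by 0.83 on the log2 scale.

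Of 12 Nodal and activin genes 10 were tested, 7 fell and 2 rose, of which 1 fall and 1 rise were of genes that passed the filter through 1 group alone, with a median of −0.53, and 4 of the falls are firm calls. *Lefty1*, which encodes a secreted Nodal antagonist and is itself a Nodal target (ENSMUSG00000038793.8, chromosome 1, 180935022 to 180938400), had the largest fall of all genes named by the rule. It went from 204 and 173 CPM to 35.5 and 27.7 CPM at 7.5 µM and 32.7 and 24.1 CPM at 10 µM, a 6.48-fold fall (log2 −2.70, SE 0.147, edgeR adjusted p = 1.61e-18). *Lefty2* fell by 1.26, *Skil*, a SMAD corepressor gene, by 0.59 and *Tdgf1*, the gene of the Nodal co-receptor Cripto, by 0.53 on the log2 scale. *Nodal* itself was at 57.1 and 54.2 CPM without and at 37.7, 35.7, 58.8 and 38.4 CPM with inhibitor, groups that overlapped, and its call (log2 −0.52, edgeR adjusted p = 0.0422) was lost with DESeq2 (adjusted p = 0.331). *Fst*, the gene of the activin antagonist follistatin, was called in edgeR (log2 2.52) and passed with DESeq2 (adjusted p = 0.049) but not without replicate 1 at 0 µM.

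Pluripotency genes did not move as one group. Of 15 naive pluripotency genes 14 were tested, 2 rose and 8 fell, with a median of −0.42, and both rises and 6 of the falls are firm calls. *Klf4*, a naive factor gene downstream of LIF (ENSMUSG00000003032.8, chromosome 4, 55527143 to 55532466), rose from 264 and 277 CPM to 520, 496, 480 and 477 CPM (log2 0.88, SE 0.112, edgeR adjusted p = 6.03e-08). *Tfcp2l1*, which encodes a naive factor that responds to both LIF and β-catenin, rose from 475 and 387 CPM to 778, 758, 683 and 752 CPM (log2 0.80, SE 0.111, edgeR adjusted p = 5.06e-07). Both were separated from the untreated libraries without overlap and stood near their top-dose level at 2.5 µM, with 430 and 421 CPM and 691 and 832 CPM.

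The other naive genes either fell or were not called. *Fgf4*, the main autocrine FGF gene of ES cells, fell from 327 and 333 CPM to 175, 134, 124 and 138 CPM (log2 −1.17, SE 0.115, edgeR adjusted p = 1.53e-10). *Tcl1*, *Dppa3*, *Fbxo15* and *Nr0b1* fell by 1.12, 1.11, 1.10 and 0.90 on the log2 scale. *Nanog* was at 242 and 298 CPM without and at 186, 205, 238 and 169 CPM with inhibitor, and its call (log2 −0.46, edgeR adjusted p = 0.00555) was lost with DESeq2 (adjusted p = 0.0526) and without replicate 2 at 0 µM. *Esrrb*, a direct target of the repressor encoded by *Tcf7l1*, stood at 346 and 286 CPM without and at 315, 307, 343 and 300 CPM with inhibitor, and was not called (log2 −0.02, SE 0.112, edgeR adjusted p = 0.947).

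**Figure D3:**
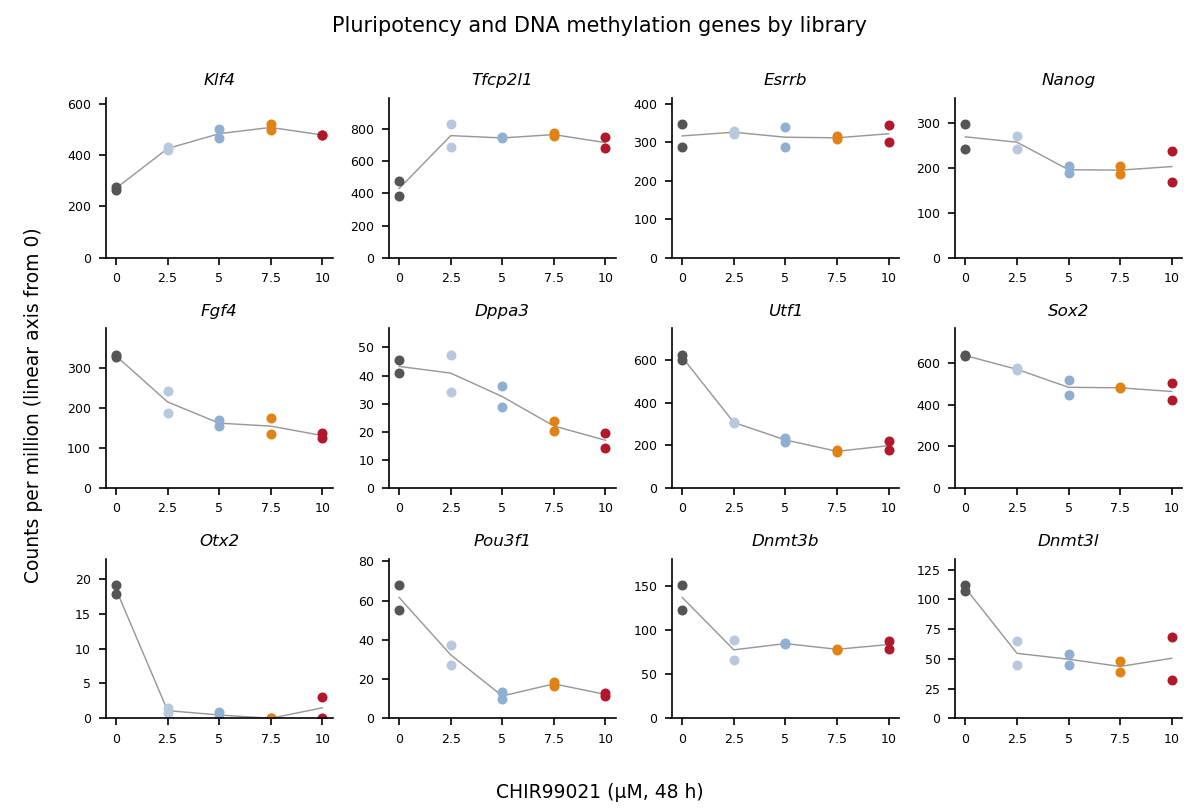
CPM of 12 pluripotency and DNA methylation genes against the CHIR99021 dose in µM, with 1 point per library and a line through the 2-library means. *Klf4* and *Tfcp2l1* are higher in every treated library, *Esrrb* overlaps the untreated libraries, and the remaining 9 genes are lower in all 4 top-dose libraries.

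Genes of general pluripotency fell or were not called. Of 10 tested genes 7 fell, 6 as firm calls, and none rose, with a median of −0.54, and their summed level went from 4140 and 4180 CPM to between 2600 and 2770 CPM. *Utf1*, which encodes a chromatin-associated factor (ENSMUSG00000047751.9, chromosome 7, 139943789 to 139945112), fell from 602 and 626 CPM to 168, 176, 219 and 178 CPM, a 3.4-fold fall (log2 −1.76, SE 0.11, edgeR adjusted p = 1.21e-16). *Sox2* fell by 0.43, *Dppa4* by 0.73 and *Lin28a* by 0.55 on the log2 scale. *Pou5f1*, the Oct4 gene, had only 11.3 to 18.5 CPM in the 6 libraries and was not called, and its level is uncertain because reads may be shared with its pseudogenes.

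The primed pluripotency and neural genes that were called all fell. Of 12 primed genes 9 were tested, 1 through the treated and 1 through the untreated libraries alone, 6 fell, 3 as firm calls, and none rose, with a median of −0.80. *Pou3f1*, a POU factor gene of primed and neural cells, went from 67.9 and 55.3 CPM to 16.7, 18.4, 13.1 and 11.3 CPM (log2 −2.01, SE 0.21, edgeR adjusted p = 6.28e-10). *Otx2*, a regulator of the exit from naive pluripotency, had 17.9 and 19.1 CPM in the untreated libraries and no count in 3 of the 4 treated ones, with 3.01 CPM in replicate 2 at 10 µM. Its call in edgeR (log2 −4.29, adjusted p = 2.6e-07) passed with each library left out but not with DESeq2 (adjusted p = 0.203), and the gene passed the filter through the untreated libraries alone. *Fgf5* had 3 counts in the untreated libraries and 0 in the treated ones.

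Among 12 neural genes 5 were tested and 3 fell, all as firm calls, with a median of −1.29. *Pax6* had 17.4 and 23.4 CPM without inhibitor and no count in 3 treated libraries, with 2.3 CPM in replicate 2 at 7.5 µM, and it passed the filter through the untreated libraries alone. *Ncam1* fell by 1.80 and *Tubb3* by 1.29 on the log2 scale. *Sox1*, too low to be tested, had 12 counts in the untreated and 0 in the treated libraries, and the summed level of the list went from 128 and 132 CPM to between 55.0 and 71.5 CPM. The neuronal RNA-binding protein gene *Elavl3* and the myelin regulator *Myrf*, both among the 12 largest falls, went from 72.8 and 56.4 CPM to between 12.3 and 22.9 CPM and from 47.3 and 45.7 CPM to between 6.53 and 11.6 CPM.

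Genes of DNA methylation and demethylation were among those that fell. Of 9 such genes 8 were tested, 1 through the treated libraries alone, 5 fell, 3 as firm calls, and none rose, with a median of −0.55. *Dnmt3b*, a de novo methyltransferase gene, went from 151 and 123 CPM to 77.6, 78.9, 88.2 and 79.1 CPM (log2 −0.80, SE 0.13, edgeR adjusted p = 8.66e-06). *Dnmt3l*, its catalytically inactive cofactor gene, fell by 1.36 and *Tet1*, which encodes an enzyme that oxidizes 5-methylcytosine, by 0.77 on the log2 scale. The falls of *Dnmt3a* (log2 −0.55) and *Tet2* (log2 −0.55) did not pass with DESeq2 (adjusted p = 0.209 and 0.106) or without replicate 1 at 0 µM.

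Of 16 genes of the FGF-ERK response 13 were tested, 1 through the treated libraries alone, and 3 rose, 2 as firm calls, with a median of 0.24. *Phlda1* rose from 21.7 and 21.3 CPM to 81.2, 65.1, 108 and 75.3 CPM (log2 1.83, SE 0.206, edgeR adjusted p = 3.68e-09), and *Spry2*, a feedback inhibitor gene of receptor tyrosine kinases, by 0.72 on the log2 scale. All 9 genes of the LIF-STAT3 pathway were tested, 4 fell and 2 rose, but 1 of the falls is of a gene that passed the filter through the untreated libraries alone and only 2 falls are firm, those of the LIF receptor gene *Lifr* (log2 −0.94) and of the kinase gene *Pim3* (log2 −0.98). *Eras*, the gene of an ES cell Ras protein and among the 12 largest falls, went from 95.7 and 99.9 CPM to 31.2, 16.1, 49 and 27.9 CPM (log2 −1.88, SE 0.193, edgeR adjusted p = 4.21e-10).

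Cell cycle genes moved in both directions. Of 16 tested genes, 1 of them through the treated libraries alone, 4 rose, 3 as firm calls, and 5 fell, 4 as firm calls, with a median of −0.08. *Cdkn1a*, the gene of the CDK inhibitor p21 (ENSMUSG00000023067.13, chromosome 17, 29090976 to 29100727), rose from 291 and 298 CPM to 865 and 875 CPM at 7.5 µM and 856 and 832 CPM at 10 µM (log2 1.55, SE 0.114, edgeR adjusted p = 3.39e-14). At 2.5 and 5 µM it stood at 601, 603, 799 and 745 CPM. The inhibitor gene *Cdkn1c* also rose (log2 0.86), whereas *Cdkn1b* fell (log2 −0.61).

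Among D-type cyclin genes *Ccnd2* rose from 10.9 and 11.7 CPM to 54.4, 59.9, 71.9 and 58.7 CPM (log2 2.40, SE 0.238, edgeR adjusted p = 1.69e-10), and *Ccnd3* fell from 210 and 211 CPM to 116, 131, 124 and 120 CPM (log2 −0.77, SE 0.116, edgeR adjusted p = 2.41e-06). The E-type cyclin gene *Ccne1* and the B-type cyclin gene *Ccnb1* fell by 0.84 and 0.50 on the log2 scale. The fall of *Ccna2* (log2 −0.42) did not pass with DESeq2 (adjusted p = 0.0539), and *Ccne2* (log2 −0.12) and *Mki67* (log2 −0.32) were not called.

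Of 13 tested genes of the p53 pathway 5 rose and 2 fell, with 3 firm calls. The firm rises were *Cdkn1a* and *Phlda3*, which encodes an AKT inhibitor (log2 0.97), and the firm fall was *Bbc3*, the gene of the proapoptotic protein PUMA (log2 −0.96). *Trp53* itself was at 259 and 231 CPM without and at 175, 233, 154 and 130 CPM with inhibitor, groups that overlapped, and its call (log2 −0.46, edgeR adjusted p = 0.0128) was lost with DESeq2 (adjusted p = 0.107). In the list of 15 Myc family and ribosome biogenesis genes 3 fell and none rose, against 9.13% and 8.22% of all genes tested, with a median of −0.06. *Mycn* fell from 129 and 102 CPM to 50.8, 54.2, 45.7 and 52 CPM (log2 −1.18, SE 0.142, edgeR adjusted p = 1.81e-08) and *Srm*, the spermidine synthase gene, by 0.69, while *Myc*, at 9.8 to 13.8 CPM, was not called (log2 −0.36, SE 0.333).

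Of 14 glycogen genes 10 were tested, 1 through the treated libraries alone, and 1 rose, *Pygl*, the glycogen phosphorylase gene of liver (log2 1.12, SE 0.231, edgeR adjusted p = 0.000386). Of 20 glycolysis and hypoxia genes 3 rose and 2 fell, with 1 firm call, the glucose transporter gene *Slc2a3*, which rose from 1370 and 1430 CPM to between 2250 and 2430 CPM (log2 0.76, SE 0.108, edgeR adjusted p = 6.71e-07). Among all genes tested 8.22% rose and 9.13% fell, and the counts of both lists are not far from those shares. Of 21 cholesterol and fatty acid genes 20 were tested, 5 rose and 1 fell, all as firm calls. Those that rose were the desaturase genes *Scd2* (log2 0.99) and *Scd1* (log2 0.68), the fatty acid synthase gene *Fasn* (log2 0.54), the regulator gene *Srebf1* (log2 0.75) and the sterol gene *Sc5d* (log2 0.91). Of these 5 rises only that of *Scd2* kept its call after counts were thinned to the smallest library. *Insig1*, which encodes a protein that retains sterol-sensing regulators in the endoplasmic reticulum, fell by 0.55 on the log2 scale.

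Of 25 genes of the lysosome and its TFEB/TFE3 network 23 were tested, 7 rose, 5 as firm calls, and 1 fell, with a median of 0.15. *Rragd*, which encodes a Rag GTPase of the mTORC1 pathway, rose from 16.9 and 20.2 CPM to 63.1, 66.3, 94.7 and 70 CPM (log2 1.94, SE 0.215, edgeR adjusted p = 2.66e-09). The cathepsin genes *Ctsb* and *Ctsl* rose by 0.77 and 0.62, and the lysosomal membrane genes *Lamp1* and *Lamp2* by 0.51 and 0.60 on the log2 scale. In the list of 20 ATF4 target genes 17 were tested, 1 through the treated libraries alone, and 2 rose and 2 fell, against 8.22% and 9.13% of all genes tested. The firm call was *Asns*, the asparagine synthetase gene, which rose from 372 and 406 CPM to between 699 and 823 CPM (log2 0.97, SE 0.114, edgeR adjusted p = 1.24e-08). *Crebrf*, whose product binds the stress factor CREB3, and *Aass*, the first enzyme of lysine breakdown, were among the 12 largest falls, from 51.1 and 40.4 CPM to between 3.27 and 17.9 CPM and from 85.3 and 58.5 CPM to between 9.8 and 16 CPM.

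Keratin genes and several genes of the contractile actin cytoskeleton rose. *Krt8* went from 139 and 151 CPM to 413, 384, 418 and 382 CPM (log2 1.47, SE 0.121, edgeR adjusted p = 1.17e-12), and its partner *Krt18* rose by 1.33 on the log2 scale. Both stand in the list of 12 trophectoderm genes, of which 8 were tested, 3 through the treated libraries alone, with 5 rises, 3 of them firm, and 1 fall. Of its defining factor genes *Cdx2* had 1 count in the untreated and 9 in the treated libraries, *Elf5* had none in any of the 6, and *Gata3*, which passed the filter through the treated libraries alone, was called as a rise in edgeR (log2 1.87, adjusted p = 0.00235) but not with DESeq2 (adjusted p = 0.0632) or without replicate 1 at 0 µM. The firm call beside the keratins was *Dlx3* (log2 1.59). The fall was of the factor gene *Tfap2c* (log2 −0.64), called in edgeR but not with DESeq2 (adjusted p = 0.128). *Gata2* (log2 0.97) and *Tead4* (log2 −0.7) were not called. Of 19 contractile actin genes 17 were tested and 6 rose, 4 as firm calls, with a median of 0.24. *Tagln*, the transgelin gene, rose from 89.7 and 128 CPM to 259, 285, 359 and 269 CPM (log2 1.44, SE 0.141, edgeR adjusted p = 1.47e-10), the skeletal actin gene *Acta1* by 1.35 and the tropomyosin gene *Tpm1* by 0.74. *Acta2*, the smooth muscle actin gene, was not called (log2 −0.39, SE 0.162).

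In the list of 15 cadherin and epithelial-mesenchymal transition genes 12 were tested, 3 through the treated libraries alone, with 3 rises and 3 falls. *Vim*, the vimentin gene, rose from 147 and 147 CPM to between 232 and 300 CPM (log2 0.81), *Fn1*, the fibronectin gene, rose by 0.84 and *Epcam*, an epithelial adhesion gene, fell by 0.61. These 3 are the firm calls of the list. The cadherin genes *Cdh1* (log2 0.04) and *Cdh2* (log2 1.11) and *Zeb1* (log2 0.76) were not called. The rise of *Snai1* (log2 1.84) and the falls of *Cdh3* and *Esrp1* (both log2 −0.86) did not pass with DESeq2 (adjusted p = 0.0887, 0.167 and 0.0782). *Cd44*, the hyaluronan receptor gene among the 12 largest rises, went from 2.72 and 5.32 CPM to 18.9, 29.4, 39.2 and 27.9 CPM.

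Markers of other cell types moved with the groups in part. The 15 primitive endoderm genes summed to 800 and 840 CPM in the untreated and to between 1060 and 1140 CPM in the treated libraries. Of these, 8 were tested, 2 through the treated libraries alone, and 3 rose, 1 as a firm call, with a median of 0.40. The firm call was *Lama1*, a laminin gene of basement membranes, which rose from 64.1 and 63.8 CPM to between 131 and 184 CPM (log2 1.39, SE 0.143, edgeR adjusted p = 4.21e-10). *Col4a1* (log2 0.81) and *Sparc* (log2 0.41) also rose, but not as firm calls. The matrix genes *Lamb1* (log2 −0.21), *Lamc1* (log2 0.09) and *Col4a2* (log2 0.38) were not called. Neither were the defining factors *Gata6* and *Gata4* (edgeR adjusted p = 0.355 and 0.774), and *Sox17* had 2 and 9 counts. The 10 fibroblast genes summed to 568 to 670 CPM against 983 to 1130 CPM, of which *Fn1* made up 529 to 624 against 931 to 1070 CPM, while *Col1a1* was not called (log2 0.14) and *Dcn* had 0 and 15 counts. The part of other cells in these values was not tested.

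Imprinted genes were split, with 10 tested of 12. Of these 5 rose, 2 as firm calls, and 3 fell, 2 as firm calls. The gene of 1 rise passed the filter through the treated libraries alone. *Peg10*, a retrotransposon-derived gene, rose from 130 and 176 CPM to 369, 482, 516 and 416 CPM (log2 1.56, SE 0.138, edgeR adjusted p = 8.77e-12), and *Mest* fell by 1.17 on the log2 scale. Of 10 germline genes 5 were tested and the firm call was the synaptonemal complex gene *Sycp3*, which fell from 133 and 169 CPM to 42.1, 59.4, 62.1 and 55 CPM (log2 −1.46, SE 0.146, edgeR adjusted p = 1.81e-10).

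**Figure D4:**
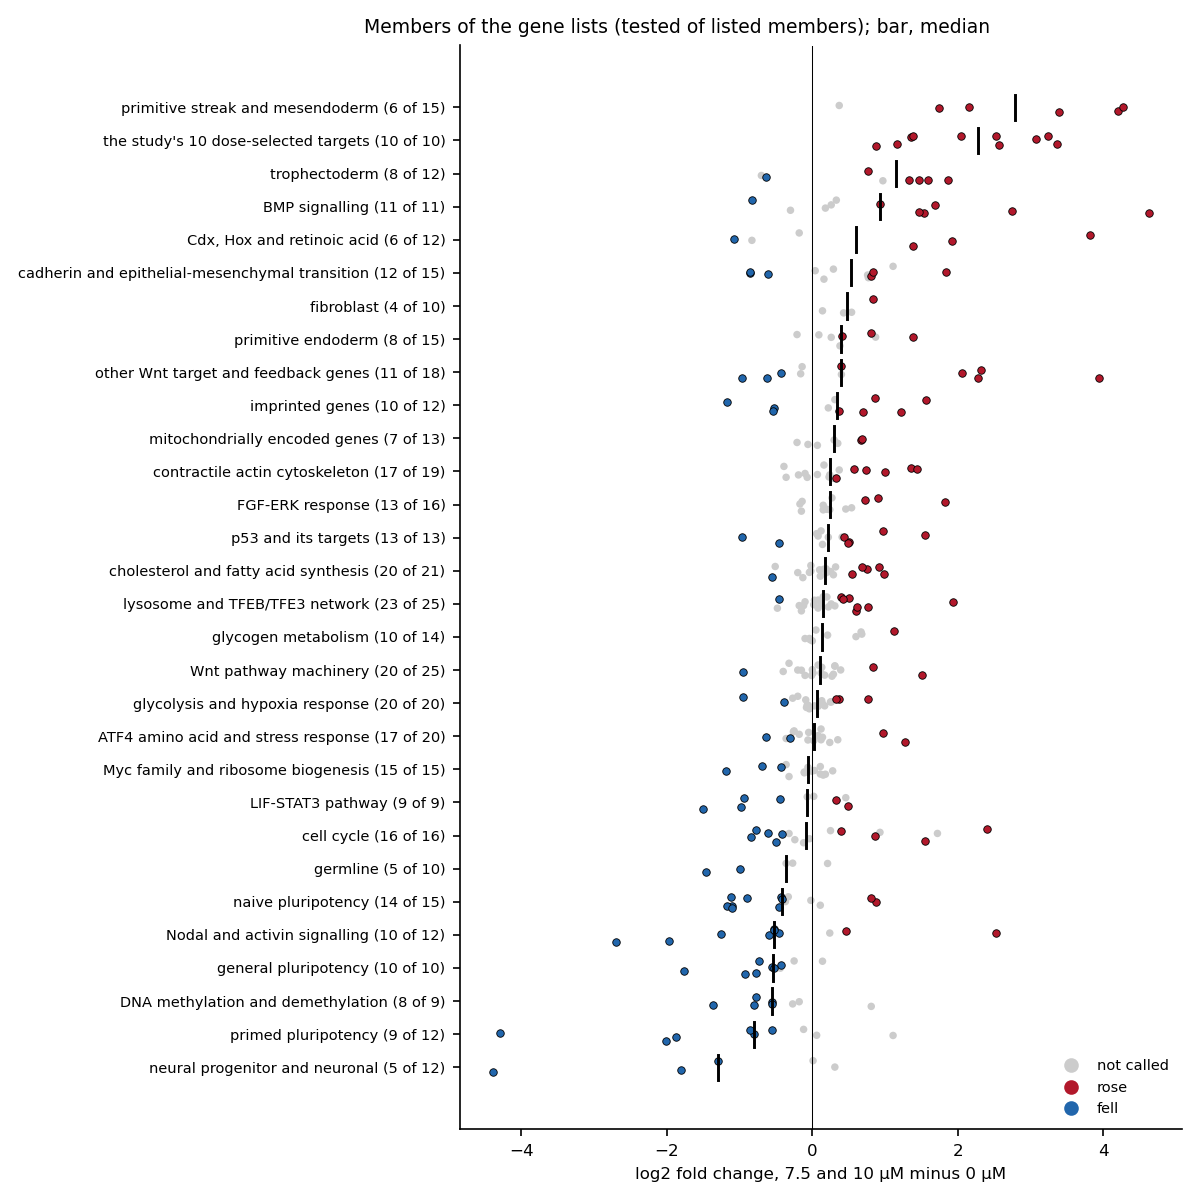
Log2 fold changes at 7.5 and 10 µM over 0 µM of the tested members of 30 gene lists, with the number tested and listed in parentheses and a bar at the median of the tested members. Red points rose, blue points fell and grey points were not called, at an edgeR adjusted p under 0.05. Medians run from −1.29 for neural genes to 2.78 for primitive streak genes, and in both of these lists some members passed the filter through 1 group alone.

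Ranked by the gain or loss in mean CPM rather than by fold, the leading genes were abundant ones, which this measure favours. The largest gain was in *Pabpc1*, the gene of a poly(A)-binding protein, which went from 2700 and 2420 CPM to 4780, 5430, 4510 and 4000 CPM, a mean gain of 2120 CPM (log2 0.88, SE 0.116, edgeR adjusted p = 1.25e-07). It was followed by the noncoding gene *2410006H16Rik*, from 1330 and 1550 CPM to between 2550 and 2860 CPM, and by *Rplp0*, *Slc2a3* and the ribosomal pseudogene *Rps16-ps2*, whose reads cannot be told apart with certainty from those of its parent gene. The largest loss was in *Chchd10*, the gene of a mitochondrial intermembrane space protein, from 3760 and 4530 CPM to 2340, 2070, 2680 and 2210 CPM (log2 −0.83, SE 0.112, edgeR adjusted p = 2.7e-07). *Actb*, *Mif*, *Serbp1* and *Ifitm1* came next. *Ifitm1*, an interferon-induced membrane protein gene expressed in early embryos, was the 1 gene among both the largest folds and the largest losses, at 769 and 840 CPM without and 231, 190, 248 and 206 CPM with inhibitor. The small changes of *Rplp0*, *Rps16-ps2* and *Actb* (log2 0.32, 0.34 and −0.30) were lost without replicate 1 at 0 µM.

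Pooling both top doses was examined by testing them against each other. Between 10 and 7.5 µM 1 of the genes tested was called, 0.00958%, and 533 (5.11%) had an unadjusted p under 0.05. With DESeq2 no gene was called, and 62 had an unadjusted p under 0.05. In simulated counts of the top-dose libraries alone, edgeR recovered 57% and DESeq2 21.5% of 200 genes changed 2-fold. The test itself fitted all 6 libraries with each dose as its own group, so its own recovery was not measured. The low number of calls does not show that both doses act alike. The called gene was *Malat1*, a nuclear noncoding RNA and no member of the lists, which was lower at 10 µM (875 and 1720 CPM) than at 7.5 µM (2640 and 3390 CPM) by 1.16 on the log2 scale (SE 0.183, edgeR adjusted p = 0.000546). Its untreated libraries stood at 2530 and 1240 CPM, so the untreated replicates also stood far apart, and both libraries of low mitochondrial share had the lowest levels of the 6. The part of that share in the difference was not tested. *Fgfbp3*, which encodes an FGF-binding protein, had 45.7 and 36.9 CPM at 7.5 µM and 68.6 and 68.5 CPM at 10 µM but was not called between them (log2 0.76, edgeR adjusted p = 0.534).

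The genes called for the doses were also read in the mutant clones, which share no library with the doses. The study's codon 37 clones (5 libraries) carried S37A, S37C, S37F (2 clones) or S37Y. Its codon 45 clones (4 libraries) carried S45C, S45F (2 clones) or S45P. Both groups were compared in the same way, and the spread within each also holds differences between substitutions. Of 9520 genes tested 936 were called, 471 (4.95%) higher and 465 (4.88%) lower in the codon 37 clones. Of the genes that rose with inhibitor 722 were also tested here. Of these 66.2% had a higher mean estimate in the codon 37 clones, against 50.8% of all 9305 genes tested in both comparisons, and 110 (15.2%, against 4.67% of all) were called higher while 31 (4.29%, against 4.88%) were called lower. Of 869 genes that fell with inhibitor 67.1% were lower in the codon 37 clones, against 49.2% of all, and 145 (16.7%, against 4.88%) were called lower while 31 (3.57%, against 4.67%) were called higher.

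Genes called in the same direction included *Cdx1* (codon 37 minus codon 45, log2 2.16, edgeR adjusted p = 3.49e-06), *T* (1.70, adjusted p = 0.000477), *Cdkn1a* (1.02, adjusted p = 4.92e-05) and *Klf4* (0.99, adjusted p = 0.005) among those that rose. Among those that fell they included *Lefty1* (−2.07, adjusted p = 0.000585), *Pou3f1* (−2.63, adjusted p = 0.00145), *Mycn* (−1.94, adjusted p = 4.92e-05) and *Tcf7l1* (−1.31, adjusted p = 7.25e-05). Among the named genes called in the opposite direction, *Tagln*, *Tpm1*, *Wls*, *Peg10*, *Rragd* and *Vim* rose with inhibitor but were called lower in the codon 37 than in the codon 45 clones. *Tagln* had 40 ± 3.27 CPM (SD, n = 5) in the codon 37 and 161 ± 150 CPM (SD, n = 4) in the codon 45 clones (log2 −1.92, edgeR adjusted p = 0.0118), and *Wls* 10.2 ± 1.99 and 23.9 ± 7.3 CPM (SD, n = 5 and 4, log2 −1.16, edgeR adjusted p = 0.0129). *Ccnd3*, *Tet2* and *Insig1* fell with inhibitor and were called higher in the codon 37 clones (log2 0.78, 1.16 and 0.59).

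**Figure D5:**
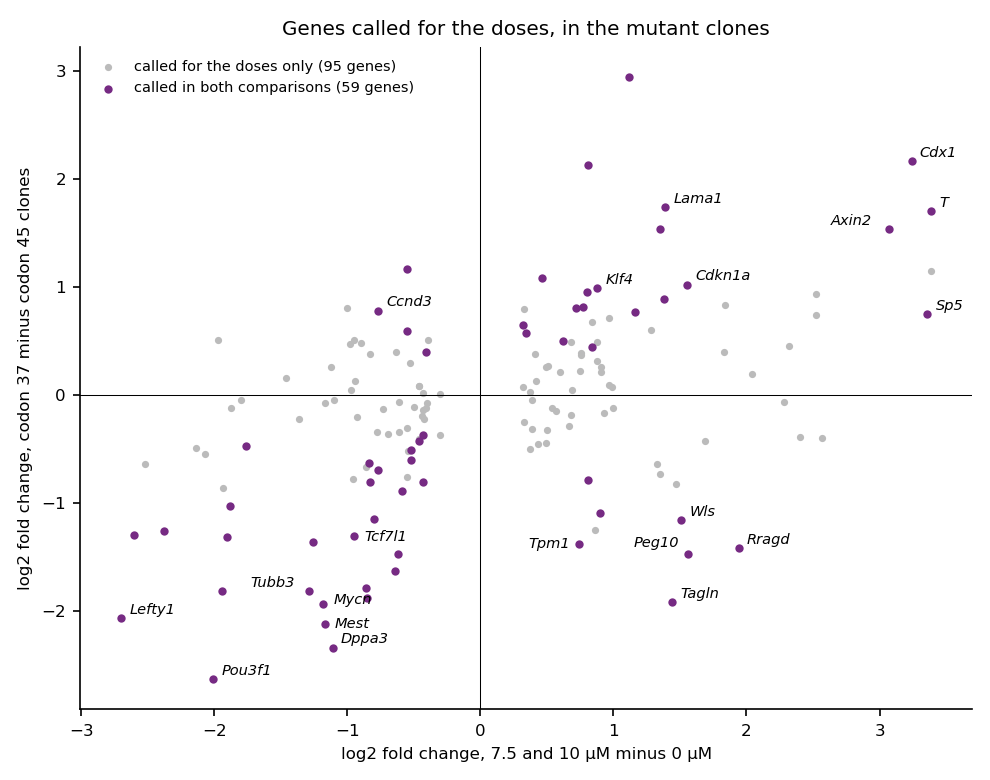
Log2 fold change at 7.5 and 10 µM over 0 µM against the log2 difference between codon 37 and codon 45 clones, for the named genes called for the doses and tested in the clones. Purple genes (59) were called in both comparisons and grey genes (95) for the doses alone, and genes at the upper left and lower right moved in opposite directions.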

How the data were processed

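RNA of each sample was sequenced as a 3′ library with unique molecular identifiers (mcSCRB-seq), so that a count is a distinct molecule and not a read. The authors deposited whole-number UMI counts per gene, which they made with adapter trimming, UMI-tools, alignment to the mouse genome (mm10) and featureCounts 2.0.1, per the study's methods and the submitters' processing notes. The annotation release and the strand setting of the counting are not given in the sources used here, so reads of a gene and of an antisense partner cannot be told apart. Of the 48440 gene IDs 48058 were found in GENCODE M21, 40606 of them with the identical version, which gave symbols and GRCm38 coordinates.

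Genes were kept by edgeR's filterByExpr (minimum count 10, which came to 7.39 CPM, reached in at least 2 libraries), scaled by TMM and tested with edgeR 4.0.16's quasi-likelihood test (R 4.3.3, limma 3.58.1) on the 6 libraries, with 4 residual degrees of freedom and Benjamini-Hochberg adjustment over all 10438 genes. The codon 37 and codon 45 clones were fitted in the same way. For 10 against 7.5 µM the same 6 libraries were fitted with each dose, 0 µM included, as its own group. DESeq2 1.42.0, other scalings and filters, thinned counts, a replicate block, a term for the mitochondrial share, each dose alone and each library left out were the alternatives. Library totals ran from 306157 to 1839735 counts, and a count of 0 allows 3 counts, an upper limit for counting error only. In simulated counts for this comparison over 10438 genes edgeR recovered 25% of 200 genes changed 1.5-fold, 71.5% of those changed 2-fold and 95.5% of those changed 4-fold, with 5.66%, 4.03% and 5.91% of the calls false.

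Genes named are the 12 largest rises and falls and the 5 largest gains and losses in CPM among genes with an adjusted p under 0.05, at least 20 CPM and groups that do not overlap, members of the gene lists, *Ctnnb1*, *Gsk3a* and *Gsk3b*. *Malat1* was named after its value was seen. The comparison and the lists were chosen with earlier results of these data known. Single values of some list members are not reported here, although the counts of their lists include them.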

Additional observations from a re-analysis of the deposited data

Results flagged for a closer look

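In 7 of 142 named genes with a value in the 4 top-dose libraries, 1 library stood farther from the others than Dixon's 95% critical value for 4 samples allows. Chance alone gives about 5% of such groups. Replicate 1 at 10 µM, the shallowest library, was the one apart in 3 of them: it was high for *Dnmt3b* (88.2 CPM) and *Nodal* (58.8 CPM) and low for *Skil* (203 CPM). Replicate 2 at 10 µM was apart in 2, low for *Col1a1* (15.8 CPM) and high for *Otx2* (3.01 CPM). Replicate 2 at 7.5 µM was apart in the other 2, low for *Gbx2* (64.5 CPM) and high for *Pax6* (2.3 CPM).

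Between both top doses 1 gene was called, *Malat1*, which was lower at 10 than at 7.5 µM (log2 −1.16, edgeR adjusted p = 0.000546).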

How the results depend on the processing

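Of the 1811 calls none was made in the opposite direction under the 16 alternatives, and 45.6% to 52.6% of the calls were rises. The count was 796 with DESeq2 (794 shared), 380 after thinning to the smallest library, where 6045 genes were tested, and 883 with 10 µM alone. Without 1 library it ran from 813 (without replicate 1 at 0 µM) to 2012 (without replicate 1 at 10 µM). Without both libraries of low mitochondrial share, an alternative chosen after seeing the data, it was 1716. Replicate numbers did not pair the samples (correlations 0.00936, −0.201 and −0.0469), and a replicate block gave 1480 calls. Between 10 and 7.5 µM, 12 genes were called with no filter, 0 with DESeq2 (62 at an unadjusted p under 0.05), 6 with a replicate block and 0 to 21 with a library left out. Between the clones the count ran from 503 to 1035 with a clone left out, with 503, 537 and 622 without the S37A, S37C and S45P clone. Among the genes named in the text, directions turned for 7, none of them a firm call: *Col1a1* (−0.16 with 10 µM alone, −0.12 without the low-mitochondria libraries, −0.1 to 0.68 with a library left out), *Eomes* (−0.1 to 0.7 with a library left out), *Gata4* (−0.59 to 1.04 likewise), *Gsk3a* (0), *Gsk3b* (−0.05), *Esrrb* (0.16 thinned, 0.01 with a replicate block, 0.02 with 10 µM alone, −0.13 to 0.11 with a library left out) and *Nodal* (0.15 thinned). The cause was not tested. After thinning, 31 of the genes named in the text kept their direction but lost their call, as did 19 with 10 µM alone, firm calls among them. The shallowest library limits what can be seen of genes under about 9.80 CPM.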
